A study of Mus musculus with 11 samples.

Results

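Intraflagellar transport (IFT) and Bardet-Biedl syndrome (BBS) genes build and load the transport system of cilia, and 37 of them were compared between newborn wild type and Bcl11b knockout (KO) olfactory tissue. Members were taken by symbol: Ift or Bbs followed by a number, and 15 further genes known to belong to the transport particles, their motors or the BBS complexes. Of 45101 probe sets on the array, whose single-gene annotations cover 18194 genes, 63 named 1 of these 37 alone, and 60 of them, covering all 37 genes, reached a mean signal of 20 over the 11 arrays and were tested. RNA had been measured in whole main olfactory epithelium (MOE) of BALB/c mice at postnatal day 0, 1 array per preparation, in 5 wild type mice and 6 mice with a conventional Bcl11b KO, all born to heterozygous parents. The 5 wild type preparations and 4 KO preparations were from males, and KO replicates 3 and 6 were from females. A conventional KO lacks the gene in every cell of the animal, so the arrays do not separate what happened inside olfactory sensory neurons (OSNs) from what happened around them. The comparison asks whether the RNA of this transport system differed once Bcl11b, a zinc finger transcription factor of the OSN lineage, was lost.

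IFT carries cargo along the microtubules of a cilium. The IFT-B particle moves toward the tip with kinesin-2 motors, the IFT-A particle serves the return with dynein-2, and the BBSome, a coat of BBS proteins, links membrane proteins to the moving particles. Chaperonin-like BBS proteins help to assemble the BBSome. In the MOE the system serves both the long sensory cilia of mature OSNs, where odorants are detected, and the motile cilia of respiratory cells at the edge of the sheet, and its loss is a known cause of poor olfaction.

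Many cilium genes are bound by RFX transcription factors at a promoter element called the X-box, so the members' promoters were searched for it. RefSeq windows (GRCm38.p6, 250 bases before to 50 after the gene start) were matched for 33 of the 37 genes; Dync2li1, Ift122, Ift80 and Ift81 were not matched. The X-box was found on either strand in 3 of 33 members (9.09%; Kif17, Ift57 and Bbs1) and in 502 of 32851 windows (1.53%). Its half-site, GTTGCC on either strand, was found in 14 of 33 members (42.4%) and in 4111 of 32851 windows (12.5%). In the 3 members with an X-box, whose arms may stand up to 3 bases apart, the half-site lies inside the match, so these 3 are among the 14. The windows below are the 3 with an X-box, and Kif3a as a member with the half-site alone. Capitals mark the matched letters, and each sequence is read along the gene's own strand. The Bbs1 match, listed as at the start, begins 1 base after it.
Kif17, chr4:138262155-138262213, + strand, 60 to 73 bases before the start: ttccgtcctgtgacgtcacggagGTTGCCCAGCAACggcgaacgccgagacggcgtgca
Ift57, chr16:49699184-49699269, + strand, 2 matches between 47 and 87 bases before the start: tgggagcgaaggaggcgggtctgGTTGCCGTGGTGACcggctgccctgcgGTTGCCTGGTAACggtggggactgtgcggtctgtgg
Bbs1, chr19:4906605-4906634, - strand, at the start: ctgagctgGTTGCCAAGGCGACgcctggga
Kif3a, half-site, chr11:53567259-53567288, + strand, 92 to 98 bases before the start: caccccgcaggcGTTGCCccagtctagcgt
A match describes letters in a window and is no measure of binding.

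The arrays matched their labels at the deleted gene. Bcl11b signal lay between 2694.3 and 4122.7 on the wild type arrays and between 560.5 and 1249.8 on the KO arrays, and with an SE of 0.17 it fell by 1.88 in log2 units (adjusted p = 1.2e-05 in limma). Median signals were 56.6 to 85.7 in wild type and 62 to 86.5 in KO. The ratio of the 3' to the 5' probe set of GAPDH was 1.88 to 2.27 in wild type and 1.82 to 2.70 in KO. It was highest on KO 3 (2.70) and KO 2 (2.42). This ratio reflects RNA integrity and the amplification together, and their parts were not told apart. Poly-A spike controls were higher on wild type 1 and 2 and KO 4, 5 and 6 (mean log2 signal 8.6 to 9.02). On wild type 3, 4 and 5 and KO 1, 2 and 3 they were lower (7.87 to 8.31). The cut lies at the widest gap in these values, and no label names a batch. These higher and lower sets are treated here as an inferred labelling batch, and whether they were labelled apart was not tested. The spike values were read after GAPDH scaling. The median signals of the arrays split the same way, 75.6 to 86.5 in the higher set and 56.6 to 75.2 in the lower. A labelling batch and a difference in array brightness can therefore not be told apart. As markers of the labelled tissue, Omp, the marker of mature OSNs, read 440.4 to 702.3 on the wild type arrays and Foxj1, the master regulator of motile cilia, read 345.3 to 410.6.

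No IFT or BBS gene passed the test in either direction. Of the 60 tested probe sets 0 were higher and 0 were lower in the KO at an adjusted p under 0.05 (limma), where 0.244% of all 33662 tested probe sets were higher and 0.211% were lower. At an unadjusted p under 0.05 the count was again 0 of 60, against 6.92% of all. The wild type and KO arrays overlapped for every member probe set (0 of 60 without overlap, against 1.29% of all). The smallest adjusted p was 0.876, for the dimmer probe set of Bbs10. Taking for each gene its probe set of highest mean signal, as in all gene values that follow, the log2 change from wild type to KO ranged from -0.26 for Bbs5 to 0.30 for Ttc21b, the latter a 1.23-fold higher mean on the log2(signal + 16) scale. The median over the 37 genes was 0.021, beside 0.047 over all tested probe sets.

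The intervals give the precision of each change. All 37 intervals (95%) included 0, all 37 lay within a 2-fold change in either direction, and 33 lay within 1.5-fold. Dync2h1 (-0.15 to 0.68), Bbs5 (-0.67 to 0.15), Bbs10 (-0.60 to 0.11) and Ttc21b (-0.12 to 0.71) were the 4 whose intervals passed 1.5-fold, on the log2 scale of the change. The median SE of a gene's change was 0.15. Changes under 0.1 in size were measured for 15 genes and changes over 0.2 for 5. The signs carry no direction for the family: 24 genes were above 0 and 13 below with the authors' GAPDH scaling, 17 and 20 with each array scaled on its median, and 3 and 34 when scaled on spiked hybridization controls, where the medians of all 6 groups of members were below 0. These p-values measure the spread between preparations, and in whole tissue fewer cells of a type and less RNA per cell cannot be told apart.

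**Figure D1:**
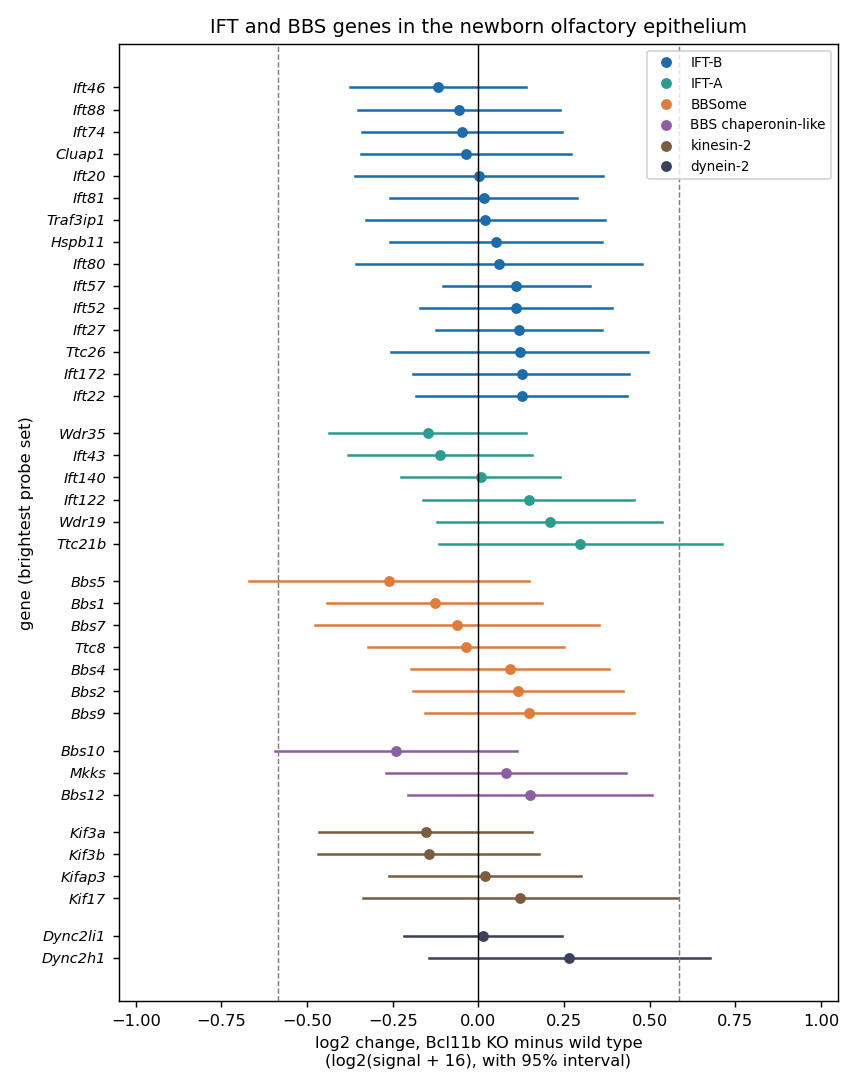
Log2 change from wild type to Bcl11b KO (x axis, log2(signal + 16)) for each of the 37 genes (y axis, grouped by complex); points are estimates, bars are 95% intervals and dashed lines mark 1.5-fold. Every bar crosses 0, and only those of Ttc21b, Dync2h1, Bbs5 and Bbs10 cross a dashed line.

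**Figure D2:**
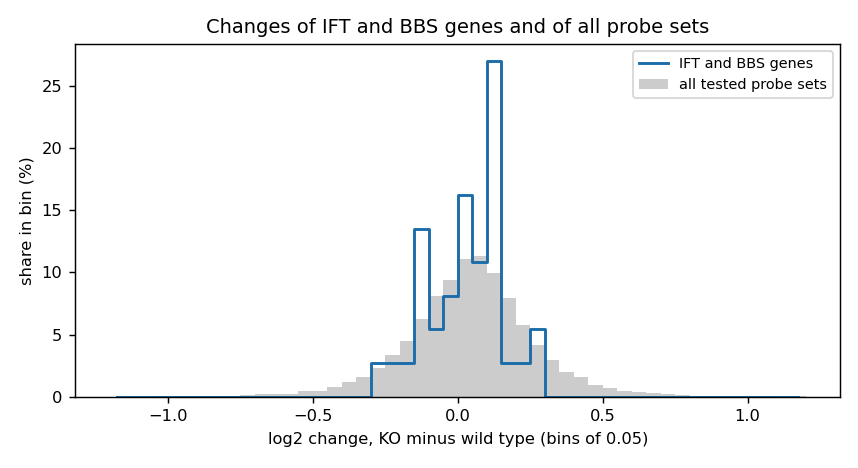
Share (%, y axis) of the 37 IFT and BBS genes and of all 33662 tested probe sets in bins of log2 change from wild type to KO (x axis). The members lie between -0.26 and 0.30.

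The IFT-B particle was the largest group, with 15 genes. Changes ranged from -0.12 for Ift46 to 0.13 for Ift22, a small GTPase of the particle, with 11 genes above 0 and 4 below. The median of 0.051 moved below 0 without KO 1 (-0.0040) or KO 4 (-0.023) and with arrays scaled on their median (-0.00014). Ift88, the subunit whose hypomorphic allele is a classic model of cilium loss, read 942 to 1215 in wild type and 792.9 to 1279.3 in KO (log2 change -0.056 ± 0.14, SE). Ift20, which also acts at the Golgi, read 730.9 to 906 in wild type and 489.6 to 1010.4 in KO, with a change of 0.0017 ± 0.17. Ift172, an elongated peripheral subunit, had a change of 0.13 ± 0.15, and Traf3ip1, which binds microtubules, of 0.021 ± 0.17.

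Ift57, an IFT-B subunit with a pair of X-box matches in its promoter, had the smallest p of that group. Its signal was 1467.4, 1581.9, 1497, 1406.3 and 1478.8 on wild type arrays 1 to 5 and 1774.5, 1487.4, 1477.7, 1770.3, 1517.9 and 1627.9 on KO arrays 1 to 6. KO 1, 4 and 6 lay above every wild type array, and the other 3 KO arrays lay within the wild type range. The means were 1486 ± 63.4 (SD, n = 5) and 1609 ± 137 (SD, n = 6), and the log2 change was 0.11 ± 0.10 by limma (SE; adjusted p = 0.958). Scaled on the hybridization controls, the sign of this change turned (-0.064).

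The 6 genes of IFT-A had a median change of 0.077 (-0.063 within the higher batch), with 4 above 0 and 2 below. Wdr35, needed for entry of membrane proteins, was at -0.15 ± 0.14 (SE), Ift43 at -0.11 ± 0.13, Ift140 at 0.0065 ± 0.11, Ift122 at 0.15 ± 0.15 and Wdr19 at 0.21 ± 0.16. Ttc21b, a peripheral subunit needed for retrograde transport, had the highest change of all members. It read 328.4, 264.4, 238, 228.1 and 260.7 on wild type arrays 1 to 5, and 472.9, 286.6, 222.7, 472.7, 332.2 and 247.5 on KO arrays 1 to 6. KO 1 and 4 stood well above the rest, KO 5 was just above the highest wild type array, and KO 3 was below the lowest. The means were 264 ± 39.1 (SD, n = 5) and 339 ± 110 (SD, n = 6), and the change was 0.30 ± 0.20 by limma (SE; adjusted p = 0.903). Without the female arrays the change was 0.52, without KO 1 or KO 4 it was 0.19, and within the higher and lower batches it was 0.19 and 0.35.

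The BBSome genes were divided, 3 above 0 and 4 below, with a median of -0.035 that moved above 0 without wild type 1, KO 2, KO 3 or KO 5 (0.0050 to 0.031) and among males (0.055). Bbs9 (0.15 ± 0.15, SE), Bbs2 (0.12 ± 0.15) and Bbs4 (0.093 ± 0.14) lay above 0. Bbs1, the subunit most often mutated in human BBS, was at -0.13 ± 0.15, with -0.43 within the higher batch and 0.094 within the lower. Bbs7 (-0.062 ± 0.20) and Ttc8 (-0.035 ± 0.14) were also below 0.

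Bbs5, a BBSome subunit that binds phosphoinositides, was the member of lowest change, and its low values came from few arrays. It read 328.6, 342.9, 308.3, 318.1 and 320.5 in wild type 1 to 5 and 360.9, 303.9, 196, 367.6, 287.5 and 157.8 in KO 1 to 6. KO 1 and 4 were above every wild type array and the other 4 KO arrays were below, with the lowest signals on KO 3 and KO 6, the female preparations. The means were 324 ± 13 (SD, n = 5) and 279 ± 85.8 (SD, n = 6), and the change was -0.26 ± 0.19 by limma (SE; adjusted p = 0.927). Among males alone the change was 0.020. Females were present in the KO only, so a difference by sex could not be tested across genotypes.

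Among the chaperonin-like genes, Mkks was at 0.080 ± 0.17 (SE) and Bbs12 at 0.15 ± 0.17. Bbs10 read 163.7, 144.9, 133, 90.9 and 123.9 on wild type arrays 1 to 5 and 118.3, 93.7, 96.4, 137.3, 108.8 and 92.7 on KO arrays 1 to 6. Wild type 1 and 2 lay above every KO array, but wild type 4 lay below all of them. The means were 131 ± 27 (SD, n = 5) and 108 ± 17.5 (SD, n = 6), and the change was -0.24 ± 0.17 by limma (SE; adjusted p = 0.914), and within the higher and lower batches it was -0.41 and -0.14. The dimmer probe set of Bbs10 gave -0.30 ± 0.19. Wild type 4 was the array of lowest median signal (56.6). With arrays scaled on their median the Bbs10 groups did not overlap (1.49% of all probe sets). The change was then -0.285 (limma, adjusted p = 0.636), and both Bbs10 probe sets had an unadjusted p under 0.05 (7.7% of all). Both also did with quantile normalization (limma, 9.37% of all), where the groups overlapped.

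Of the kinesin-2 genes, Kif3b (-0.15 ± 0.15, SE) and Kif3a were below 0, while Kifap3, the accessory subunit that joins the KIF3 motors to cargo, was at 0.020 ± 0.13. Kif17, the homodimeric kinesin-2 of sensory cilia, was at 0.12 ± 0.22 and carried the X-box shown above. Kif3a read 766, 932.5, 793.9, 652.7 and 663.4 in wild type 1 to 5 and 741.6, 541.7, 563.7, 862, 716.5 and 688.3 in KO 1 to 6. KO 2 and 3, the arrays of highest GAPDH ratio, were below every wild type array, and the other 4 KO arrays were within the wild type range. The means were 762 ± 114 (SD, n = 5) and 686 ± 119 (SD, n = 6), and the change was -0.15 ± 0.15 by limma (SE; adjusted p = 0.958), which was -0.011 without KO 2 and 3 and -0.079 without wild type 2.

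Dynein-2, the return motor, was represented by Dync2li1, its light intermediate chain (0.013 ± 0.11, SE), and Dync2h1, its heavy chain. Dync2h1 read 628.2, 507, 326.6, 410.2 and 545 in wild type 1 to 5, and 725.7, 384.8, 616.3, 708.2, 636.4 and 440.2 in KO 1 to 6. KO 1, 4 and 5 were above every wild type array, and the other 3 KO arrays fell inside the wild type range. The means were 483 ± 118 (SD, n = 5) and 585 ± 141 (SD, n = 6), and the change was 0.27 ± 0.19 by limma (SE; adjusted p = 0.926). It was 0.047 within the higher batch, 0.40 within the lower and 0.14 without wild type 3.

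**Figure D3:**
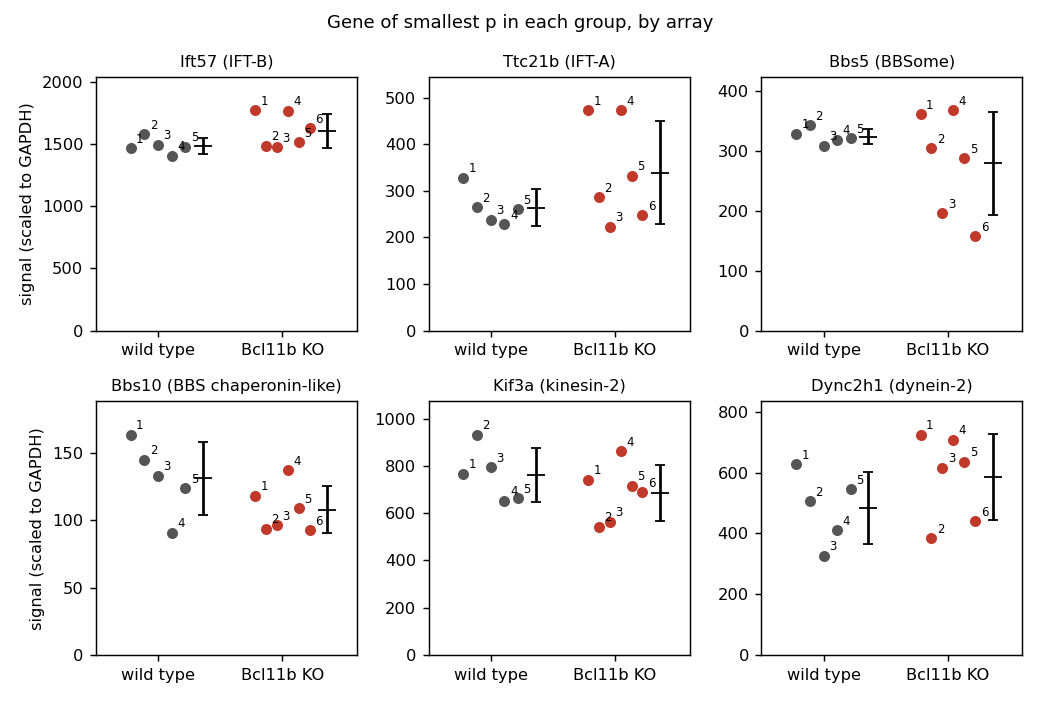
GAPDH-scaled signal (y axis) by array for the gene of smallest p in each group; points are arrays with their replicate number, and the bar beside them is mean ± SD. Wild type and KO points overlap in all 6 panels, and KO 1 and KO 4 are the highest KO arrays in each.

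For 15 genes there were several tested probe sets, 38 in all, and they often disagreed in sign. In 7 genes (Bbs10, Ift122, Ift80, Kif3a, Kifap3, Ttc21b and Wdr19) the probe sets shared 1 sign. The 4 probe sets of Kif3a gave -0.18 to -0.14, and both of Bbs10 were below 0. By contrast, Kif17 gave -0.20 on one probe set and 0.12 on the other, Ift57 gave -0.16 and 0.11, Wdr35 -0.15 and 0.063, and the 4 of Kif3b from -0.21 to 0.090. For 6 genes the brightest probe set had a suffix, s or x, and for 1 of them, Ift27, it was x. The suffix s marks probes shared among transcripts, and x marks probes that may also bind other sequences. The probe sets left out for low signal were those of Kif17 (mean signal 5.65), Hspb11 (13.1) and Bbs7 (13.8), and the dimmest inside the limit were those of Ift57 (24.8), Ift81 (26.1) and Ttc21b (28.2).

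**Figure D4:**
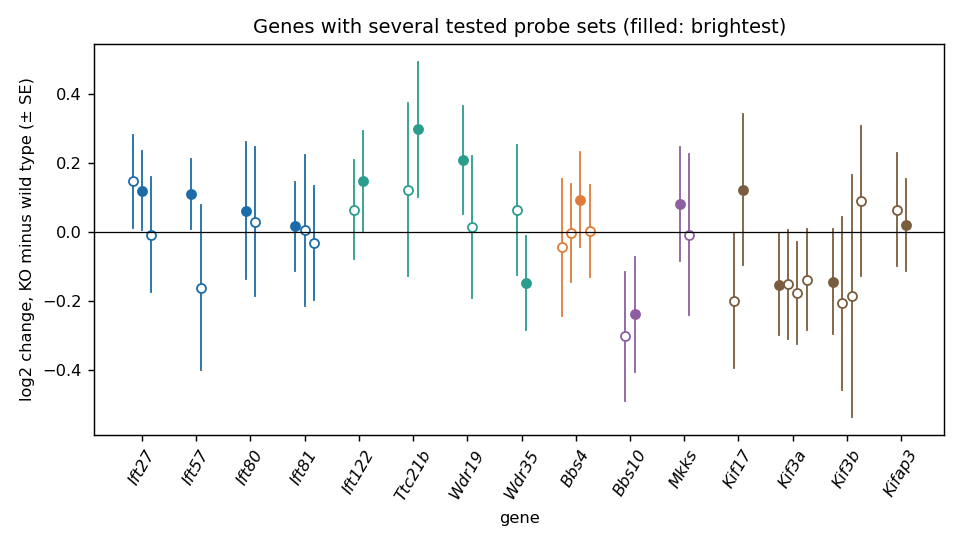
Log2 change from wild type to KO (y axis, ± SE) of every tested probe set of the 15 genes with several (x axis); filled points are the brightest probe set. The 4 probe sets of Kif3a lie together between -0.18 and -0.14, while those of Kif17 fall on both sides of 0.

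The members' median level varied more among the arrays of a genotype than between the genotypes, with a wild type mean of -0.00058 ± 0.094 (SD, n = 5) and a KO mean of 0.031 ± 0.18 (SD, n = 6). The median deviation of the 37 genes from the wild type mean lay between -0.15 and 0.11 in wild type, and on KO 1 to 6 it was 0.25, -0.051, -0.22, 0.21, -0.037 and 0.032 (log2). On wild type 4 0 of 37 genes lay above the wild type mean, on wild type 2 31, on KO 1 32, on KO 4 33 and on KO 3 7. The median over all tested probe sets was also lowest on wild type 4 (-0.21) and highest on KO 4 (0.21), but it parted from the members on KO 1 (0.075 against 0.25) and on KO 5 (0.14 against -0.037). KO 1 and KO 4 also had the highest median deviation of the respiratory multiciliated markers (0.32 and 0.31); the part of motile ciliated cells in the member values was not tested.

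Cell type markers gave the setting. Of 21 mature OSN markers 5 fell and 0 rose (0.211% of all probe sets were lower), with a median change of -0.37 and a summed level of 27856 to 35619 in wild type and 19103 to 26564 in KO. Of these markers 17 were below 0 and 4 above, up to 0.58 for Acss2. Gnal, the G protein subunit of odorant signalling, fell by 0.70 with an SE of 0.11 (limma, adjusted p = 0.00545). That value is from its brightest probe set, and 1 of its 3 tested probe sets passed. Omp was at -0.57 ± 0.18 (adjusted p = 0.309) and Adcy3, the cyclase of OSN cilia, at -0.37 (adjusted p = 0.544). The summed level of the 37 members was 26596 to 32022 in wild type and 25724 to 35095 in KO. On each array the median deviation of the mature OSN markers minus that of the members was taken. It was -0.11 to 0.19 in wild type and -0.55 to -0.34 in KO, so these ranges did not overlap. The deviation of the mature OSN markers alone was already apart (-0.16 to 0.21 in wild type, -0.69 to -0.25 in KO). The gap is therefore no separate result on the members. This is a description, since the lists were chosen with results known. Of 28 respiratory multiciliated markers 0 passed (median 0.078, summed level 15391 to 17711 in wild type and 15404 to 21123 in KO), with Foxj1 at -0.042 ± 0.15. Of 17 sustentacular cell markers 0 passed (median 0.039, summed level 59162 to 67300 and 58856 to 70928). Of 20 immature OSN markers 1 rose and 2 fell (median 0.062, summed level 60695 to 75580 and 59970 to 76873). Their changes ranged from -1.13 for Nrn1l to 1.48 for Stmn4, and 6 had an unadjusted p under 0.05 (limma, 6.92% of all probe sets). Beside the counts of each list, 0.244% of all probe sets were higher and 0.211% lower.

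**Figure D5:**
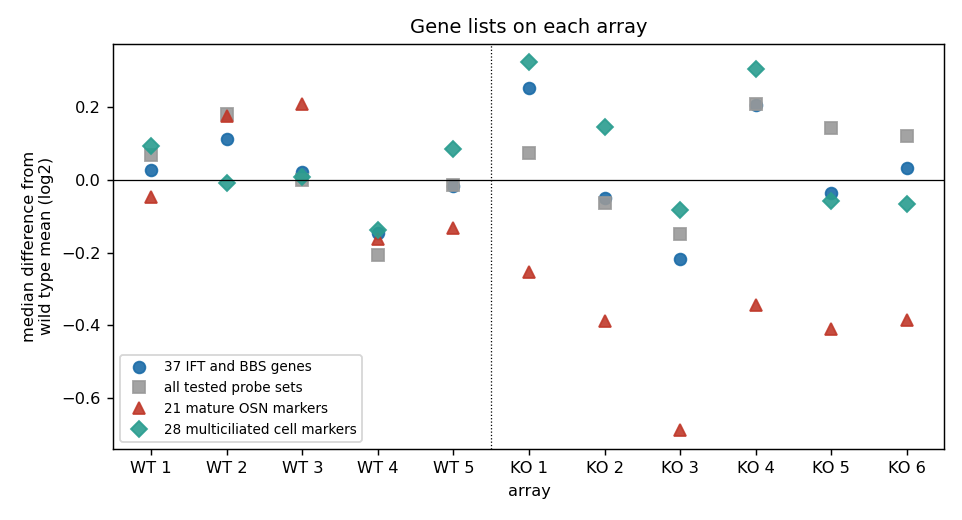
Median deviation from the wild type mean (log2, y axis) of the IFT and BBS genes and of the marker lists on each array (x axis). The mature OSN markers lie at -0.25 or lower on every KO array, while the members lie on both sides of 0 in both groups.

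Other genes of the pathway were counted in the same fit. Of 36 partners of the IFT and BBS machinery 0 passed and 3 (8.33%) had an unadjusted p under 0.05 in limma, near the 6.92% of all probe sets, with a median of -0.0027. Kif3c, a kinesin-2 subunit of neurons that the rule on symbols does not include, had the lowest change among them. Its signal was 1070.4, 1145.1, 1089.7, 827.5 and 948.1 in wild type 1 to 5 and 815.4, 627.7, 415.3, 727.6, 857.3 and 893.1 in KO 1 to 6. Wild type 4 lay within the KO range and the other 4 wild type arrays lay above it. The change was -0.52 ± 0.18 (SE; interval -0.89 to -0.15; limma, adjusted p = 0.4). KO 2 and 3, the lowest arrays, were those of highest GAPDH ratio, and without them the change was -0.29. The part of RNA quality or amplification in this change was not tested. Trim32, a ubiquitin ligase mutated in a form of BBS, had means of 431 ± 52.3 (SD, n = 5) and 570 ± 110 (SD, n = 6) and the change was 0.38 ± 0.16 by limma (SE; adjusted p = 0.609).

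Of 34 transition zone and basal body genes 0 passed (0.244% of all probe sets were higher and 0.211% lower). At an unadjusted p under 0.05 there were 0 (limma, 6.92% of all), and the median was -0.027. The genes of smallest p were Invs (0.27 ± 0.17, SE, adjusted p = 0.883) and Tmem107 (0.13 ± 0.088, adjusted p = 0.904). As means over all their probe sets, Invs was at 0.062 and Tmem107 at -0.0089. Of 8 cilium transcription factors 0 passed, with a median of -0.025. Among the RFX factors, which bind the X-box, Rfx4 was at -0.42 ± 0.20 (adjusted p = 0.732) on a dim probe set of mean signal 28.7 and Rfx1 at 0.20 ± 0.19 (adjusted p = 0.958). Neither value was stable in size: Rfx4 was at -0.65 with a pseudocount of 1 and -0.20 with 64, and Rfx1 was at 0.080 without wild type 4 and 0.093 without KO 4. Rfx3, a regulator of ciliogenesis, was at -0.20 ± 0.22 (adjusted p = 0.968) and Rfx2 at -0.0086 ± 0.18.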

How the data were processed

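The deposited values were intensities on a linear scale, 1 per probe set and array; per the study's methods, the authors amplified cRNA in 2 rounds from nanogram amounts of total RNA and scaled each array linearly to GAPDH in the GeneChip operating software (GCOS, version not given in the sources used here). The GAPDH probe set reads 10000 on every array, so a GAPDH difference between groups would move every other value. Groups, replicate numbers and sex came from the labels, and 0 columns were left unmapped. From the deposited intensities log2(signal + 16) was computed, which understates changes of dim probe sets. Control probe sets (64) and those of mean signal under 20 were left out, which left 33662 of 45101. Wild type and KO were compared with limma 3.58.1 in R 4.3.3 (lmFit, eBayes with an intensity trend, no covariate), with Benjamini-Hochberg adjustment over all tested probe sets. The number of arrays limits the precision.

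For each gene the brightest of its tested probe sets, by mean signal, was used. Values by array were given for the member of smallest p in each group, and for the other lists the genes of smallest p and defining markers were named. Kif3c values by array, Rfx2, Rfx3 and the members named beside these were chosen after their values were seen. The members and all lists were chosen with earlier results of these data known. Symbols came from the platform annotation and matched RefSeq for all 63 member probe sets. The batch was inferred from 8 poly-A 3' probe sets on the GAPDH-scaled signal. Replicate numbers were not used as pairs in the main fit. Deviations of same-numbered arrays correlated between -0.28 and 0.0085, which cannot exclude a pairing.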

Additional observations from a re-analysis of the deposited data

Results flagged for a closer look

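Of 88 groups of arrays checked over 44 genes, 3 held an array far from the others, where chance gives about 1 in 20 groups. Mkks, a chaperonin-like BBS gene, read 360.7 on wild type 2, the next highest wild type array being 299.2. Ift172, an IFT-B subunit, read 471.5 on wild type 4, the next lowest being 672.7. Traf3ip1, an IFT-B subunit that binds microtubules, read 414.6 on KO 3, the array of highest GAPDH ratio, the next lowest KO array being 633.8.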

How the results depend on the processing

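No member passed the threshold (limma) under any alternative run, 27 for the count of probe sets and 28 for that of genes; the smallest adjusted p ranged from 0.284 to 1. At an unadjusted p under 0.05 there were 11 of 60 probe sets, all lower, with arrays scaled on spiked hybridization controls (11.3% of all probe sets), 3 without KO 2 and 3, a choice made after seeing the data (14% of all), 2 with array weights (12.5% of all), and at most 2 under each other alternative (4.78% to 10.3% of all). Hybridization control scaling moved the median of all probe sets from 0.047 to -0.11, of the members to -0.15, of IFT-A to -0.097 and of the BBSome to -0.21, so the members lay -0.044 from all probe sets. Leaving out single arrays moved the members' median between -0.014 and 0.093, below 0 without wild type 4, KO 1 or KO 4; its sign turned in 6 of 28 alternatives. The median turned sign in 9 for the BBSome, 5 for IFT-B, 4 for kinesin-2, 2 for IFT-A, 2 for the chaperonin-like genes and 1 for dynein-2. Within the higher and lower batches it was 0.010 and 0.045. Members without overlap between groups numbered 1 with arrays scaled on their median (Bbs10; 1.49% of all), 3 within the higher batch (Bbs1, Bbs10 and Ift20; 22.1% of all) and 2 within the lower (Kif17 and Ift27; 9.87%). Of the other pathway genes 1 passed under quantile normalization, Kif3c (-0.58, adjusted p = 0.0319); the cause was not tested. Of 168 values for the gene of smallest p in each group, 4 changed sign. They were Bbs5 among males only and with sex as a covariate (0.020 in both), and Ift57 on hybridization control scaling (-0.064) and as a mean of its probe sets (-0.026). The counts of sign turns hold repeated and fixed outcomes. With females in the KO only, sex as a covariate gives the males-only changes, and the replicate block gives those without KO 6. Leaving out the filter or the intensity trend left these changes as they were. With the replicate number as a block, 0 members passed, their median was 0.013, and 91 probe sets of all were called. KO 6 has no partner and drops out of this fit, and without KO 6 and with no block 133 were called (153 with all arrays). Of 10 arrays 0 correlated best with the array of its own number. The labels give no pairing beyond the number, and with so few arrays this check cannot exclude one. The median 95% interval of a member reached 0.31 to either side of its log2 change, before adjustment.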
